A study of Mus musculus with 18 samples.

Results

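Resident Kupffer cells are the self-renewing macrophages of the liver sinusoids. A panel of 10 genes that mark or equip these cells was examined in the livers of mice on a high fat diet (HFD): *Clec4f*, *Vsig4*, *Timd4*, *Cd5l*, *Marco*, *Cd163*, *Folr2*, *C1qa*, *C1qb* and *C1qc*. The genes were chosen by name, and all 10 were found among the 23352 gene symbols of the tables, each with 1 entry and a valid estimate in every liver. None of the livers was sorted, so the values are those of whole tissue, in which fewer cells of a type and less RNA per cell cannot be told apart.

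The samples were 18 livers of 20 week old male mice, all on HFD, with 1 poly(A) library per mouse. There were 9 wild-type (WT) livers and 9 *Gpr180*KO livers. *Gpr180*KO mice carry a deletion of an exon of *Gpr180*, made with CRISPR on the C57BL/6J background and present in every tissue, so that no cell type is singled out by the model. The sample titles are written in 2 styles, A with 4 livers and B with 5 livers of each genotype. The labels do not say what the styles stand for. Expression is given as FPKM, the number of sequenced fragments scaled by transcript length and by library size.

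*Gpr180* itself lay between 4.46 and 9.24 FPKM in the WT livers and between 0.876 and 1.99 FPKM in the *Gpr180*KO livers, so every library matched its genotype label. Liver RNA was plain in all libraries: 14 measured hepatocyte genes summed to at least 22554 FPKM. One *Gpr180*KO liver, KO51 (replicate 5), stood apart and was the highest or lowest of the 18 for 55.8% of the 10835 genes with a mean of at least 1 FPKM, against 1.86% to 21.8% for the other livers. One WT liver, W134 (replicate 7), stood apart in several of the Kupffer cell genes. Results that rest on either liver are given with and without it.

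Kupffer cells settle in the liver early in life and renew themselves there, while monocytes from the blood can replace them after injury. Their program is set by transcription factors such as LXRα (*Nr1h3*), SpiC, ID3 and MAF proteins, on top of PU.1, the general macrophage factor, and is maintained by signals from sinusoidal endothelial cells, stellate cells and hepatocytes. The cells take up blood-borne particles, dying cells and haemoglobin, and they are a main source of complement C1q. *Clec4f* and *Timd4* are widely used to tell resident cells from macrophages that arrived recently.

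The panel covers several tasks. *Clec4f* (chr6:83644542-83656116, mm10) encodes a lectin that binds galactose-type sugars, *Vsig4* (chrX:96247203-96293438) the complement receptor CRIg, and *Timd4* (chr11:46810799-46844333) a receptor for phosphatidylserine on dying cells. *Cd5l* (chr3:87357881-87371074) encodes the secreted protein AIM, *Marco* (chr1:120474538-120505084) a scavenger receptor for bacteria and particles, *Cd163* (chr6:124304651-124330527) the receptor for haptoglobin-haemoglobin complexes, and *Folr2* (chr7:101839988-101845331) a folate receptor. *C1qb* (chr4:136880145-136886177), *C1qc* (chr4:136889802-136892914) and *C1qa* (chr4:136895916-136898844) encode the 3 chains of C1q, which starts the classical complement pathway. They lie next to each other within 18700 bases, with 3624 bases between *C1qb* and *C1qc* and 3001 bases between *C1qc* and *C1qa*.

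The pairs of genes that moved together most closely across the livers were *C1qb* with *C1qc* and *Clec4f* with *Folr2*, and their promoter sequences are shown for that reason. Each stretch holds the 250 bases before the RefSeq start (GRCm38.p6), written 5′ to 3′ on the strand of the gene, which is the minus strand for these genes. Capitals mark GAGGAA, the core bound by PU.1, and TGCTGA, a core bound by MAF proteins, searched on both strands. A capital run that reads TTCCTC is GAGGAA on the other strand, and no capital runs overlap.
C1qb, chr4:136886201-136886450: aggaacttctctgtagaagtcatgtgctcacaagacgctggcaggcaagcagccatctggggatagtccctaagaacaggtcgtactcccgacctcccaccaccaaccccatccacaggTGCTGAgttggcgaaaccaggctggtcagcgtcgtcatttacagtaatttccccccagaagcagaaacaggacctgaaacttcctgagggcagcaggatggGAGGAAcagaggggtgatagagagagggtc
C1qc, chr4:136892915-136893164: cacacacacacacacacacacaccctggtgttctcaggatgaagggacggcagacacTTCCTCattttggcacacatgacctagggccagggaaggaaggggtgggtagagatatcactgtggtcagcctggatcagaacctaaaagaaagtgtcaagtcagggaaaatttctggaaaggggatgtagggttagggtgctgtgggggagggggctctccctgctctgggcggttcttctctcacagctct
Clec4f, chr6:83656117-83656366: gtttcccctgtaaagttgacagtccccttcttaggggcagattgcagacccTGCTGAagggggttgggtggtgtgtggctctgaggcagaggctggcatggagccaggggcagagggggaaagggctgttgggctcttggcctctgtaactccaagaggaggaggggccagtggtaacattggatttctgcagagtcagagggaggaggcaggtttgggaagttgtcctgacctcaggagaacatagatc
Folr2, chr7:101845332-101845581: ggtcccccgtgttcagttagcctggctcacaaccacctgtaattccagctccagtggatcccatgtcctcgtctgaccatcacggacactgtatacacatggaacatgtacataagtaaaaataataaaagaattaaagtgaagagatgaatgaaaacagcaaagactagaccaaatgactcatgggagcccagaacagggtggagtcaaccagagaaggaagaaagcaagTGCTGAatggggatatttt

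The C1q pair shared GAGGAA, and *Clec4f* and *Folr2* shared TGCTGA, which the *C1qb* stretch also held. Promoter stretches were matched for 9 of the 10 genes, and *C1qa* had none. *Folr2* had 2 RefSeq starts. The counts below used the stretch that is not shown, and both stretches held TGCTGA. Of the 9 genes, 5 held GAGGAA, which was present in 23.3% of the 32851 promoter stretches in the reference, and 5 held TGCTGA, present in 16.1%. Both motifs are short, and a match describes the letters only.

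The levels of the panel spanned more than an order of magnitude. Over the 18 livers, *Cd5l* had the highest mean at 64.8 FPKM ± 19.2 (SD, n = 18). It was followed by *C1qc* at 63.1 ± 16.7, *C1qb* at 62.2 ± 17.9, *C1qa* at 52.9 ± 13.9 and *Clec4f* at 46.0 ± 11.4. *Vsig4* stood at 30.1 ± 5.97 FPKM, *Folr2* at 12.2 ± 4.12, *Marco* at 9.96 ± 12.6, *Timd4* at 4.23 ± 1.72 and *Cd163* at 3.32 ± 1.10. Neighbours in this order were often not distinct: *C1qc* was above *Cd5l* in 8 livers, *C1qb* above *C1qc* in 7, and *Cd163* above *Timd4* in 4. *Vsig4* exceeded *Folr2* in every liver.

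**Figure D1:**
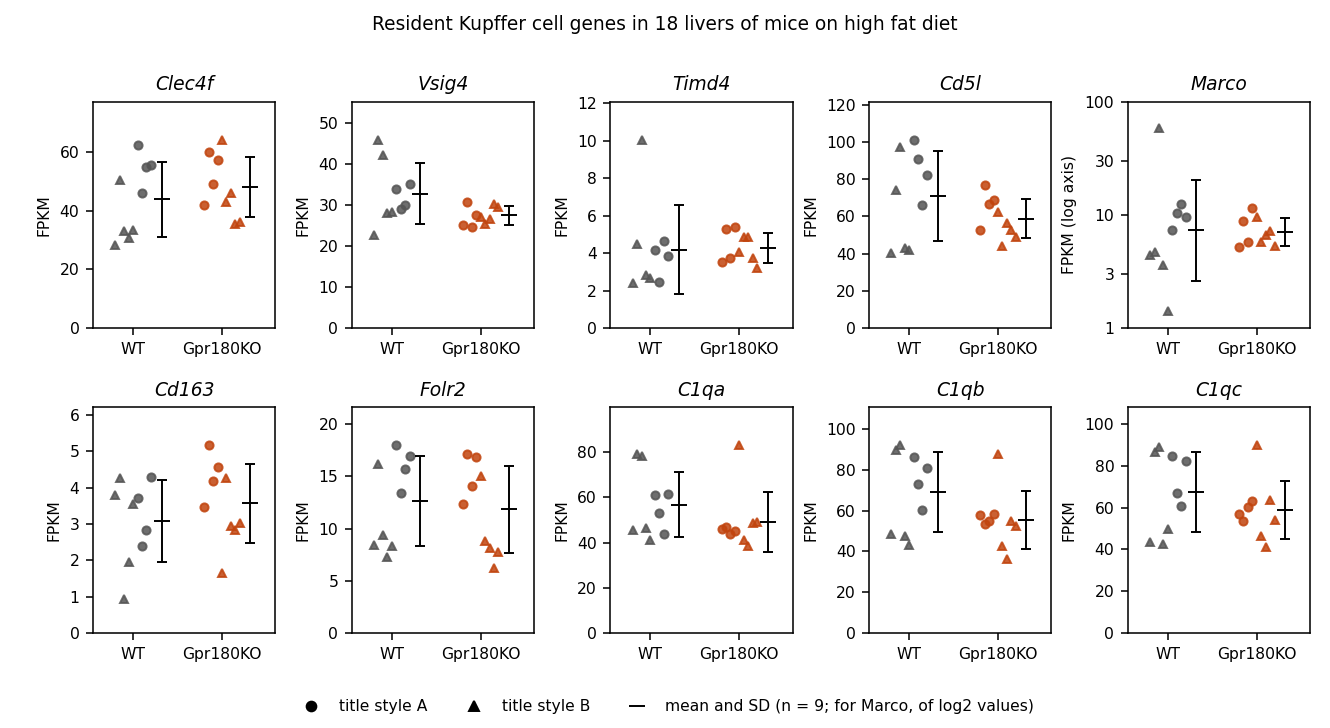
FPKM of the 10 Kupffer cell genes in each liver, by genotype, with circles for title style A and triangles for style B. Bars give the mean and SD of 9 livers, and for *Marco*, on a log axis, those of the log2 values. The genotypes overlap for every gene, and 1 WT liver (W134, *Marco* 59.2 FPKM) lies far above the rest for *Marco* and *Timd4*.

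The first question was whether the resident Kupffer cell genes change when GPR180 is lost in obese mice. None of the 10 genes was called lower and none was called higher in *Gpr180*KO livers. The test was limma on log2(FPKM + 0.1) over 10835 genes, and a gene was called where its Benjamini-Hochberg adjusted p was under 0.05. Over all genes tested, 4.28% were called lower and 0.452% higher. At an unadjusted p under 0.05 there were 0 of the 10 genes against 2403 of all genes. The median log2 fold change of the panel was -0.14, with 7 of 10 genes below 0, and that of all genes tested was -0.13, with 76.9% below 0.

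This overall shift depends on the scaling. With median-of-ratios scaling in place of FPKM as deposited, the median of all genes moved to 0.02 and that of the panel to 0.02, with 5 of 10 genes below 0. Over all genes, calls split into 464 lower and 49 higher on deposited FPKM and into 147 lower and 146 higher after rescaling, and the panel still had none in either direction. The directions of *Marco* and *Folr2* flipped under this scaling. The directions given below are on the scale of FPKM as deposited.

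Among the markers used to recognise resident cells, *Clec4f* ranged from 28.3 to 62.4 FPKM in WT livers (median 45.9) and from 35.5 to 64.2 FPKM in *Gpr180*KO livers (median 45.9). The ranges overlapped almost fully, and the log2 fold change was 0.16 (95% CI -0.18 to 0.50, adjusted p = 0.573 by limma).

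*Vsig4* ranged from 22.6 to 45.9 FPKM in WT livers (median 29.9) and from 24.7 to 30.8 FPKM in *Gpr180*KO livers (median 27.1). Its *Gpr180*KO values sat within the WT range and were much closer to each other, with a CV of 8.32% against 22.6%. The log2 fold change was -0.23 (95% CI -0.46 to 0.00, adjusted p = 0.233 by limma).

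*Timd4* ranged from 2.42 to 10.1 FPKM in WT livers (median 3.87) and from 3.18 to 5.39 FPKM in *Gpr180*KO livers (median 4.04). The highest value came from W134 and the next WT liver had 4.67 FPKM. Its log2 fold change was 0.16 (95% CI -0.29 to 0.60), and 0.33 (adjusted p = 0.229 by limma) without W134.

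Of the secreted and scavenger genes, *Cd5l* ranged from 40.4 to 101 FPKM in WT livers (median 74.3) and from 43.9 to 76.6 FPKM in *Gpr180*KO livers (median 56.5). The WT livers fell on both sides of the *Gpr180*KO range, and the log2 fold change was -0.20 (95% CI -0.59 to 0.18).

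*Marco* ranged from 1.41 to 59.2 FPKM in WT livers (median 7.41) and from 5.23 to 11.6 FPKM in *Gpr180*KO livers (median 6.61). Both extremes of the 18 livers were WT, 42-fold apart, with W157 at the bottom and W134 at the top. The log2 fold change was -0.06 (95% CI -1.01 to 0.90), and it turned to 0.32 without W134 (adjusted p = 0.585 by limma).

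*Cd163* ranged from 0.953 to 4.29 FPKM in WT livers (median 3.56) and from 1.65 to 5.17 FPKM in *Gpr180*KO livers (median 3.47). The lowest livers were W134 and KO51. The log2 fold change was 0.25 (95% CI -0.27 to 0.78), 0.07 without W134 and 0.38 without KO51.

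*Folr2* ranged from 7.26 to 18.02 FPKM in WT livers (median 13.4) and from 6.29 to 17.2 FPKM in *Gpr180*KO livers (median 12.4). High and low livers were found in both genotypes, and the log2 fold change was -0.10 (95% CI -0.57 to 0.37).

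On deposited FPKM the C1q genes were lower on average in *Gpr180*KO livers, but not beyond the spread between livers. The median log2 fold change of all genes tested was -0.13 on this scale. With median-of-ratios scaling the values were -0.04 for *C1qa*, -0.15 for *C1qb* and -0.02 for *C1qc*, and the median of all genes was 0.02. *C1qb* ranged from 43.2 to 92.1 FPKM in WT livers (median 72.8) and from 36.5 to 87.6 FPKM in *Gpr180*KO livers (median 54.7), with a log2 fold change of -0.30 (95% CI -0.66 to 0.06, adjusted p = 0.310 by limma). In 8 of 9 *Gpr180*KO livers *C1qb* lay between 36.5 and 58.3 FPKM, and KO51 was the exception. *C1qb* passed the threshold with livers of title style A alone (log2 fold change -0.41, adjusted p = 0.0477 by limma) and with library weights (-0.38, adjusted p = 0.0492), and over the 34 alternatives its adjusted p ran from 0.0477 to 0.701.

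*C1qa* had 56.6 ± 14.3 FPKM in WT and 49.2 ± 13.1 in *Gpr180*KO livers (SD, n = 9 each), with a log2 fold change of -0.20 (95% CI -0.51 to 0.11). *C1qc* had 67.4 ± 18.9 FPKM in WT and 58.8 ± 13.8 in *Gpr180*KO livers, with a log2 fold change of -0.17 (95% CI -0.52 to 0.17). KO51 was the highest *Gpr180*KO liver for all 3 C1q genes, and without it the log2 fold changes were -0.30 for *C1qa*, -0.39 for *C1qb* and -0.25 for *C1qc*, none of which passed the threshold.

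**Figure D2:**
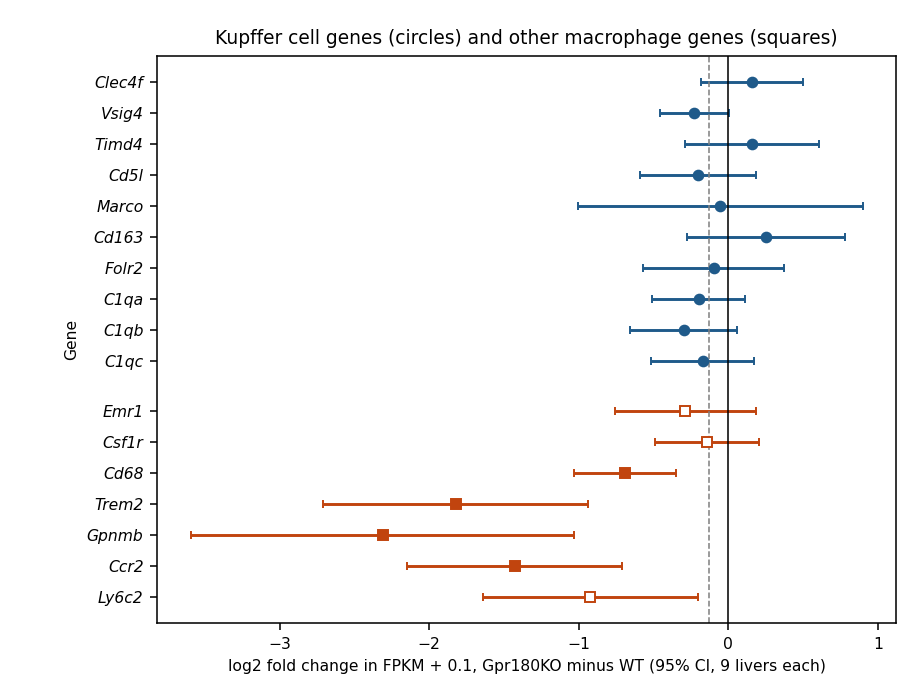
Log2 fold change in FPKM + 0.1 (*Gpr180*KO minus WT) with 95% confidence intervals, for the 10 Kupffer cell genes (circles) and 7 other macrophage and monocyte genes (squares, filled where limma's adjusted p was under 0.05). The dashed line is the median of all genes tested (-0.13). The intervals of all 10 Kupffer cell genes reach 0, whereas those of *Cd68*, *Trem2*, *Gpnmb* and *Ccr2* lie wholly below 0. So does that of *Ly6c2*, which was not called after adjustment.

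Other genes that are known for Kupffer cells were not called either. Of 11 listed, 10 could be tested and 0 were called in either direction, with a median log2 fold change of -0.08. The list included *Clec1b*, a receptor for podoplanin, at 9.24 ± 2.04 FPKM in WT and 8.72 ± 1.40 in *Gpr180*KO livers (SD, n = 9 each), and *Slc40a1*, the iron exporter ferroportin, at 44.5 ± 7.23 and 43.9 ± 6.46 FPKM. *Fcna*, a ficolin of the lectin pathway, had 30.6 ± 8.77 and 38.4 ± 12.6 FPKM. *Cd207*, the lectin langerin, had 3.63 ± 2.20 and 2.31 ± 1.08 FPKM with an adjusted p of 0.294 by limma. Of 12 genes of haem and iron recycling, a list that shares *Cd163*, *Slc40a1* and *Hmox1* with those above, 0 were called, and the median was -0.12.

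Among 14 tested regulators of Kupffer cell identity, 1 fell and 0 rose, with a median log2 fold change of -0.10. The gene that fell was *Maf*, a large MAF factor of mature macrophages, from 8.72 ± 1.30 FPKM in WT to 6.32 ± 1.37 in *Gpr180*KO livers (log2 fold change -0.48, adjusted p = 0.042 by limma). *Nr1h3* stood at 53.3 ± 5.80 and 57.1 ± 5.505 FPKM, and *Id3* at 53.2 ± 24.1 and 54.7 ± 23.8 FPKM. *Spic* had 1.99 ± 1.69 and 1.64 ± 0.680 FPKM. PU.1, listed as *Sfpi1*, had 5.30 ± 1.54 and 3.64 ± 0.945 FPKM with an adjusted p of 0.090, and *Irf8* had 3.05 ± 0.704 and 2.23 ± 0.344 FPKM with an adjusted p of 0.071. The number called in this list was 0 with median-of-ratios scaling and 4 with library weights, and it ranged from 0 to 4 when single livers were left out.

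Of 11 tested ligands and receptors of the Kupffer cell niche, 1 fell and 0 rose, with a median of -0.34. The gene that fell was *Gdf2*, which encodes the stellate cell ligand BMP9, from 7.45 ± 0.879 FPKM in WT to 5.67 ± 1.09 in *Gpr180*KO livers (log2 fold change -0.40, adjusted p = 0.038 by limma). It was not called with median-of-ratios scaling, under which the list had 0 calls. *Csf1*, the main growth factor of macrophages, had 3.18 ± 0.736 and 2.48 ± 0.616 FPKM, and its receptor *Csf1r* 21.9 ± 6.82 and 19.2 ± 3.06 FPKM. Neither *Csf1* nor *Csf1r* passed the threshold.

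C1q works with the proteases C1r and C1s, which are made by hepatocytes. *C1ra* was at 78.1 ± 6.02 FPKM in WT and 78.4 ± 5.05 in *Gpr180*KO livers, and *C1s* at 176 ± 18.3 and 143 ± 21.3 FPKM (log2 fold change -0.31, adjusted p = 0.057 by limma). *Serping1*, the inhibitor of both proteases, had 396 ± 39.2 and 448 ± 48.7 FPKM. Of 12 tested genes of the C1 complex and the classical pathway other than C1q, 1 fell and 0 rose. That gene was *C3ar1*, the receptor for the C3a fragment, with 1.96 ± 0.576 and 1.01 ± 0.239 FPKM (log2 fold change -0.87, adjusted p = 0.015).

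Some genes of macrophages in general passed the test. Of 18 pan-macrophage genes, 4 fell and 0 rose, with a median log2 fold change of -0.42. They were *Cd68*, a lysosomal glycoprotein, from 19.3 ± 4.55 to 11.9 ± 2.84 FPKM (log2 fold change -0.69, adjusted p = 0.026 by limma), the lipopolysaccharide co-receptor *Cd14* (-0.98), the lysosomal gene *Laptm5* (-0.59) and *Sirpa*, the receptor for CD47 (-0.64). The F4/80 gene *Adgre1*, listed as *Emr1*, had 12.9 ± 7.38 FPKM in WT and 9.46 ± 1.37 in *Gpr180*KO livers (-0.29, adjusted p = 0.457), and its highest value was 30.5 FPKM. The summed level of the 18 genes ran from 228 to 563 FPKM in WT and from 259 to 344 FPKM in *Gpr180*KO livers. The number that fell was 1 with median-of-ratios scaling and 9 with library weights, and it ranged from 0, without W317, to 9, without W157, when single livers were left out.

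Markers of lipid-associated macrophages, which appear in fatty liver, and of monocytes were counted next. Of 12 tested lipid-associated genes, 6 fell and 0 rose, with a median of -1.12. *Trem2*, a lipid-sensing receptor, went from 2.77 ± 1.37 to 0.825 ± 0.626 FPKM (log2 fold change -1.82, adjusted p = 0.023 by limma), and *Gpnmb* from 3.0 ± 2.43 to 0.476 ± 0.490 FPKM (-2.31, adjusted p = 0.037). Of 5 tested monocyte genes, 2 fell, namely *Ccr2*, the chemokine receptor of inflammatory monocytes, from 2.67 ± 1.43 to 0.836 ± 0.387 FPKM (-1.43, adjusted p = 0.028) and *S100a4* (-1.43, adjusted p = 0.031). *Ly6c2* had 2.05 ± 1.11 and 0.908 ± 0.284 FPKM with an adjusted p of 0.121. Leaving out 1 liver at a time gave 2 to 8 lipid-associated and 0 to 4 monocyte genes, and with the livers of title style B alone there were 0 in each.

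Markers of other cell types were counted in the same fit, as a description of the tissue. Of 14 tested stellate cell and fibroblast genes 6 fell, of 3 cholangiocyte genes 2 fell (*Sox9*, and *Spp1*, which is also among the 6 lipid-associated genes that fell), and of 14 hepatocyte genes 1 rose. There were no calls among 12 sinusoidal endothelial, 5 erythroid, 3 neutrophil and 1 dendritic cell genes, and no T, NK or B cell marker had a mean of 1 FPKM or more over the 18 livers, so none was tested. The part of these other cells in the levels of the panel was not tested.

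Within a single liver, the level of one gene can be set against another, and such a ratio does not change with the scaling of the library. For 6 ratios, the genotypes were compared by an exact permutation test, two-sided and over all splits of the livers into groups of 9, adjusted over the 6. The log2 ratio of *Clec4f* to *Cd68* was 1.16 ± 0.443 in WT and 2.01 ± 0.460 in *Gpr180*KO livers (SD, n = 9 each), a difference of 0.85 or 1.80-fold. All 9 *Gpr180*KO livers were above the WT mean, and the exact p was 0.00123 (adjusted p = 0.0074). *Cd68* was itself called lower in these same livers and *Clec4f* was not called, so this test is not independent of the fall of *Cd68*. The difference was 0.51 within title style A and 1.12 within style B, and 0.71 without W134 and KO51 (exact p = 0.00466).

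The ratio of *Clec4f* to *Emr1* did not pass. It was 1.87 ± 0.672 in WT and 2.32 ± 0.374 in *Gpr180*KO livers, a difference of 0.45 (exact p = 0.0536, adjusted p = 0.107), and 0.12 without W134 and KO51. W134 alone had a ratio of 0.12, where the other WT livers had 1.86 to 2.32.

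Of the other members, *Vsig4* was lower relative to *Clec4f* by a log2 ratio difference of -0.39 (exact p = 0.0417, adjusted p = 0.107) and *C1qa* by -0.36 (exact p = 0.0765, adjusted p = 0.115). When livers were permuted only within their title style, the exact p was 0.00533 for *Vsig4* (adjusted p = 0.016) and 0.0186 for *C1qa* (adjusted p = 0.0372). Without W134 and KO51 the *Vsig4* difference was -0.24 (exact p = 0.144) and that of *C1qa* -0.29 (exact p = 0.107), both by permutation over all splits. By that test *C1qa* did not pass with these livers either. The permutation within title style was not run without them. The differences within style A and style B were -0.17 and -0.56 for *Vsig4*, and -0.18 and -0.50 for *C1qa*.

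The ratios of *Timd4* and *Marco* to *Clec4f* did not pass the test in all 18 livers. The log2 ratio of *Timd4* to *Clec4f* was -3.45 ± 0.698 in WT and -3.45 ± 0.261 in *Gpr180*KO livers, a difference of -0.00 (exact p = 0.993). Without W134 it became 0.21 (exact p = 0.115), and without W134 and KO51 0.28 (exact p = 0.0277, not adjusted). That of *Marco* to *Clec4f* was -2.51 ± 1.45 and -2.72 ± 0.269, a difference of -0.21 (exact p = 0.745) that turned to 0.20 without W134.

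After these values were seen, *Clec4f* was also set against *Trem2*, *Gpnmb* and *Ccr2*, with adjustment over these 3. The log2 ratio to *Trem2* was 4.05 ± 0.639 in WT and 6.03 ± 1.16 in *Gpr180*KO livers, that to *Gpnmb* 4.33 ± 1.55 and 6.80 ± 1.14, and that to *Ccr2* 4.17 ± 0.895 and 5.76 ± 0.548. The adjusted exact p was 0.000864, 0.00206 and 0.000864. The size of these differences depends on the constant added to each FPKM. They were 1.98, 2.47 and 1.59 with 0.1, and 1.19, 1.41 and 1.07 with 1. In *Gpr180*KO livers *Trem2* went down to 0.0736 FPKM and *Gpnmb* to 0.0181 FPKM, below the added 0.1. Since these partners were already known to fall, the ratios describe the contrast with *Clec4f* and are no separate evidence of it.

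**Figure D3:**
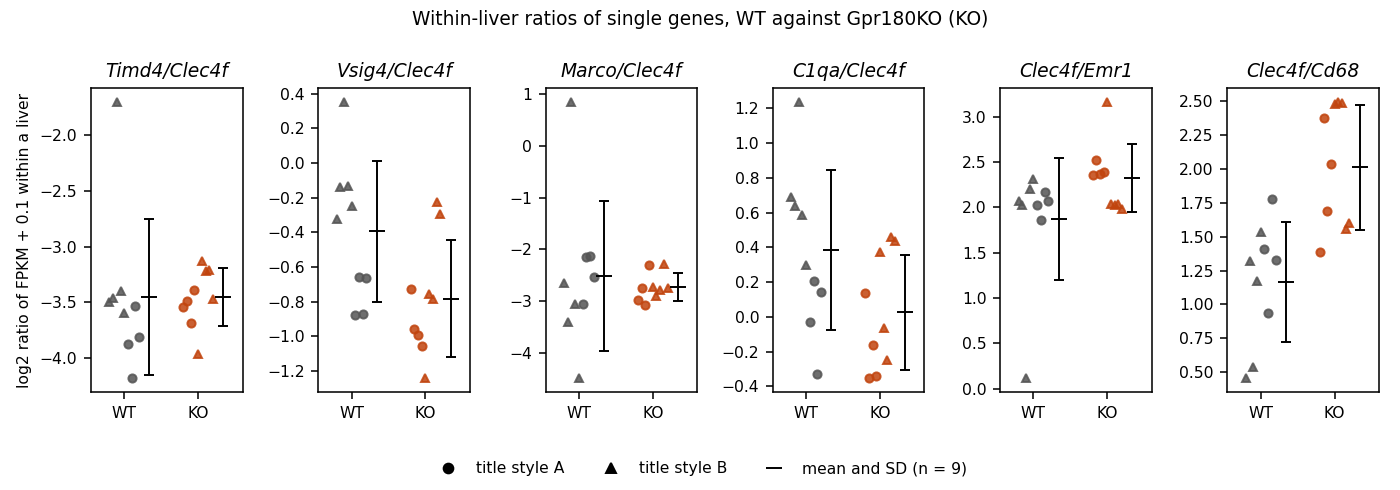
Within-liver log2 ratios of FPKM + 0.1 for 6 pairs of genes, by genotype, with circles for title style A and triangles for style B, and the mean and SD of 9 livers. The *Gpr180*KO livers lie between 1.39 and 2.49 for *Clec4f*/*Cd68* and the WT livers between 0.46 and 1.78. W134 is the far WT point for *Timd4*/*Clec4f*, *Marco*/*Clec4f* and *Clec4f*/*Emr1*.

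The title styles separated the livers more than the genotype did for some members. This comparison was added after the values were seen. In a fit with genotype and title style, *Folr2* was lower in style B by -0.75 on the log2 scale (adjusted p = 0.0028 by limma), *Cd5l* by -0.46 (adjusted p = 0.0422) and *Clec4f* by -0.44 (adjusted p = 0.024). *Folr2* was at 16.03 ± 1.98 FPKM (SD, n = 4) and 9.93 ± 3.60 (n = 5) in WT livers of style A and B, and at 15.1 ± 2.30 (n = 4) and 9.23 ± 3.40 (n = 5) in *Gpr180*KO livers. In both genotypes most style B livers lay below all style A livers, with W133 and KO51 as the exceptions.

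Thus 3 of 10 members were called lower in style B and 0 higher, where 19.1% of all genes were called lower and 3.78% higher. Under median-of-ratios scaling *Folr2* alone was called (-0.63, adjusted p = 0.0144 by limma). *Marco* joined without W134 (-0.82, adjusted p = 0.0413), and *Folr2* was called without W134 and without KO51. What the title styles stand for cannot be told from the labels, and mice, diet batches and library runs cannot be told apart here.

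The genotype difference was not found to depend on the title style. For the interaction of genotype and title style, 0 of 10 members passed, and over all genes 0% were lower and 0% higher by limma. At an unadjusted p under 0.05 there were 0 members and 833 genes. The interaction estimate of *Clec4f* was 0.42 (95% CI -0.12 to 0.96), from a genotype difference of -0.08 in style A and 0.35 in style B. Effects of this size could not be resolved with 4 and 5 livers a group.

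The second question was how far the members vary together from liver to liver. Correlations were computed on log2(FPKM + 0.1) over the 18 livers after the mean of each genotype was removed, for all 45 pairs. The median Pearson's r was 0.54, and 38 pairs were positive. By permutation of the livers, adjusted over the 45 pairs, 17 passed for Pearson's r and 13 for Spearman's rho. All pairs share the same libraries and their scaling, and the part of these in the correlations was not tested. Values for pairs of other genes are not given here, so the counts do not set the panel apart.

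The 3 C1q genes formed the tightest block. *C1qb* and *C1qc* had r = 0.97 and rho = 0.94 (permutation p = 0.00001 each, adjusted p = 0.00015 and 0.000225), and r was 0.98 without the 2 livers farthest out in *C1qb*, W157 and KO51. *C1qa* had r = 0.90 with *C1qb* and 0.87 with *C1qc*. In the 9 WT livers r ran from 0.86 to 0.97, and in the 9 *Gpr180*KO livers from 0.89 to 0.97. The *Gpr180*KO values lean on KO51: without it r was 0.94 for *C1qb* and *C1qc*, 0.82 for *C1qa* and *C1qb* and 0.76 for *C1qa* and *C1qc*. By rho the 9 *Gpr180*KO livers gave 0.87, 0.48 and 0.63, and 0.81, 0.26 and 0.48 without KO51.

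*Clec4f* and *Folr2* formed the other close pair, with r = 0.92 and rho = 0.89 (permutation p = 0.00001 each, adjusted p = 0.00015 and 0.000225). It was 0.92 without W317 and W131, the livers farthest out in *Clec4f*, and 0.95 when the means of the title styles were removed as well. The value was 0.97 in WT and 0.88 in *Gpr180*KO livers. The genes lie on different chromosomes. *Clec4f* and *Vsig4* had r = 0.32 and rho = 0.35 (permutation p = 0.275, adjusted p = 0.354), and *Clec4f* and *Timd4* had r = 0.28 and rho = 0.48 (adjusted p = 0.403 for r). Both were higher without W134, at 0.49 and 0.73.

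*Cd5l* correlated with members of both groups. Its r was 0.75 with *C1qb* and *C1qc* and 0.70 with *Clec4f*, *Folr2* and *Marco*, and all 5 pairs passed for r and for rho. With *C1qa* it was 0.54, which did not pass (adjusted p = 0.0671 by permutation). With title style means removed as well, r was 0.50 with *Clec4f*, 0.51 with *Folr2*, 0.71 with *Marco* and 0.76 to 0.77 with the C1q genes. In WT and *Gpr180*KO livers alone it was 0.93 and 0.35 with *C1qb*, and 0.92 and 0.33 with *C1qc*. It was 0.69 and 0.77 with *Clec4f*, 0.73 and 0.79 with *Folr2*, and 0.72 and 0.68 with *Marco*. The closest relation of *Timd4* was with *Marco*, with r = 0.77 and rho = 0.59 (adjusted p = 0.0219 and 0.0646), but r was 0.47 without W134, so that it rests largely on this liver. *Cd163* had a negative r to 7 of the other 9 members, the lowest being -0.53 with *Marco* (adjusted p = 0.123), which became -0.05 without W134. Of the 9 pairs, 4 had a negative r without W134 and 4 a negative rho with it. Without W134 the r of *Cd163* was 0.40 with *Timd4*, 0.23 with *Vsig4* and 0.20 with *Cd5l*. No pair with *Cd163* passed for r, and its pair with *Folr2* passed for rho alone (r = 0.36, rho = 0.60, adjusted p = 0.0466 for rho). Without W134 and KO51 that r was 0.63. In the 9 *Gpr180*KO livers the r of *Cd163* leaned on KO51. It was 0.01 with *Clec4f* and 0.27 with *Folr2*, and 0.84 and 0.86 without KO51. With *C1qa* and *C1qb* it was -0.74 and -0.49, and -0.05 and 0.28 without KO51. With *Vsig4* it was -0.02, and -0.10 without KO51.

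**Figure D4:**
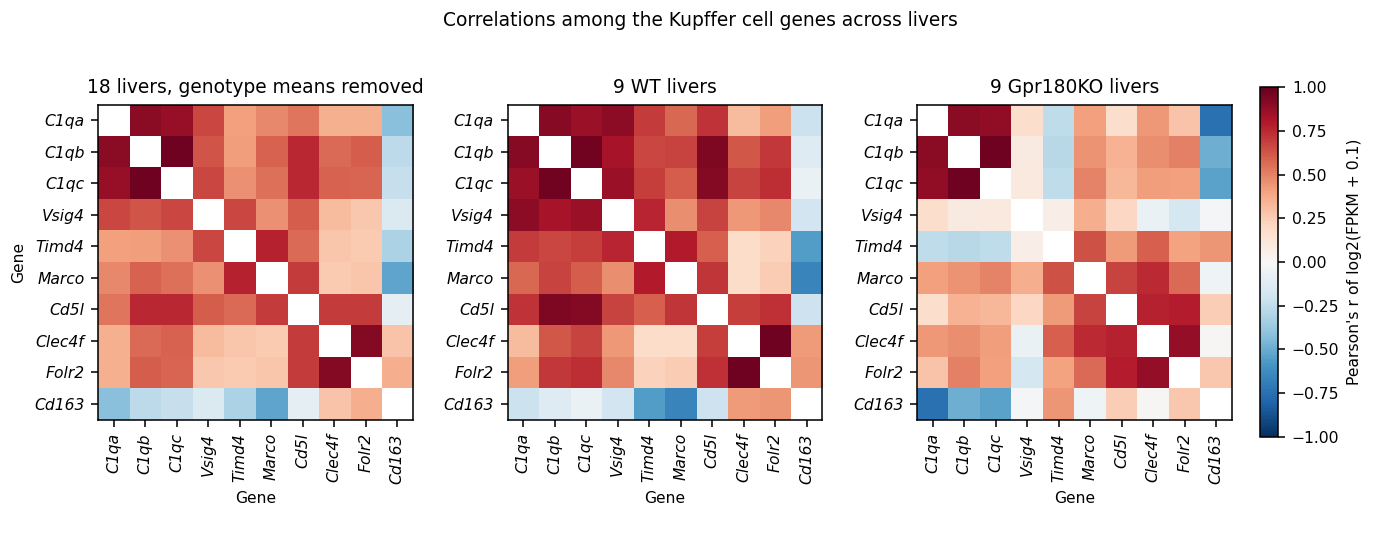
Pearson's r of log2(FPKM + 0.1) for the pairs of the 10 Kupffer cell genes, over 18 livers with genotype means removed (left), over 9 WT livers (middle) and over 9 *Gpr180*KO livers (right). The C1q block at the upper left is dark in all 3 panels (r of 0.86 or more), while the row of *Vsig4* is dark against C1q in WT (0.83 to 0.90) and pale in *Gpr180*KO (0.09 to 0.17, or 0.20 to 0.62 without KO51).

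The relations were closer in WT than in *Gpr180*KO livers as measured, with a median r of 0.67 and 9 pairs past the threshold against 0.36 and 4 pairs (exact permutation over 362880 pairings, n = 9 each). The median was 0.69 in WT livers without W134 and 0.34 in *Gpr180*KO livers without KO51. With *C1qa*, *C1qb* and *C1qc*, *Timd4* had an r of 0.70, 0.67 and 0.69 in WT and of -0.25, -0.27 and -0.25 in *Gpr180*KO livers, and *Vsig4* of 0.90, 0.83 and 0.86 in WT and of 0.17, 0.09 and 0.10 in *Gpr180*KO livers. Without KO51 the r of *Vsig4* in *Gpr180*KO livers was 0.62, 0.20 and 0.20. The difference between the genotypes in r was not tested. *Vsig4* also varied less in *Gpr180*KO livers, with an SD of 0.119 on the log2 scale against 0.316.

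**Figure D5:**
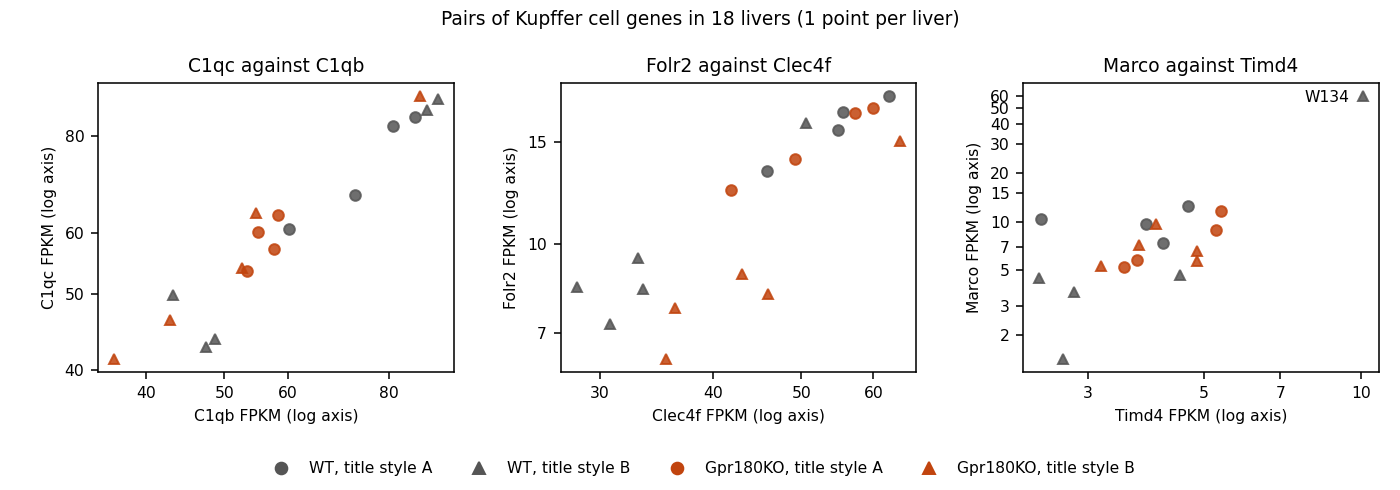
FPKM of *C1qc* against *C1qb*, *Folr2* against *Clec4f* and *Marco* against *Timd4*, both axes on log scales, 1 point per liver, coloured by genotype and shaped by title style. The first pair follows a line across both genotypes (r = 0.97), the second does so with style B livers mostly at the low end (r = 0.92), and in the third W134 lies alone at the upper right.

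The spread between livers differed among the members. Within genotypes, the SD of log2(FPKM + 0.1) was lowest for *Vsig4* at 0.239 and highest for *Marco* at 1.07, where the median over all genes tested was 0.282. The SD was higher in WT than in *Gpr180*KO livers for 9 of 10 members, with *Folr2* as the exception (0.514 against 0.536). Without W134 this held for 8, since *Cd163* turned (0.399 against 0.480), and *C1qa* was nearly level (0.317 against 0.316). For *Cd5l* it was 0.541 against 0.258, and for *Timd4* 0.638 against 0.268, or 0.392 in WT without W134. The difference in spread was not tested. The share of all genes with a higher SD in WT livers is not given here, so the count does not set the panel apart.

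Over all 10835 genes, the 10 whose levels followed the mean of the 3 C1q genes most closely across the 18 livers were *Ifi30*, *Hcls1*, *Rac2*, *Chmp4b*, *Fcer1g*, *Cxx1b*, *Cfp*, *Phc2*, *Wfdc17* and *Trappc5*. *Ifi30*, a lysosomal thiol reductase of antigen-presenting cells, led with r = 0.91 and rho = 0.90, at 26.6 ± 7.88 FPKM in WT and 19.3 ± 3.72 in *Gpr180*KO livers. *Hcls1* and *Rac2*, signalling proteins of blood cells, followed with r = 0.91 and 0.90, and *Fcer1g*, the common Fc receptor gamma chain, had 0.87. For *Ifi30*, r was 0.94 in WT and 0.88 in *Gpr180*KO livers.

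The 10 genes outside the panel closest to the mean of *Clec4f*, *Vsig4* and *Timd4* were *Fpr1*, *Siglece*, *Cfp*, *Fam43a*, *Emr1*, *Cd300e*, *Cd300a*, *Cep44*, *Aif1* and *Pbx2*. *Fpr1*, a receptor for formyl peptides, led with r = 0.85 and rho = 0.81, and *Siglece*, an inhibitory sialic acid receptor, had r = 0.80. For *Fpr1* r was 0.92 in WT and 0.45 in *Gpr180*KO livers. *Cfp*, which encodes the complement regulator properdin, was on both lists, with r = 0.86 and 0.80. None of these 19 genes was called between the genotypes.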

How the data were processed

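Liver poly(A) RNA of 18 male mice on HFD was measured with 1 library per mouse. The authors processed single reads against mm10 (GRCm38) with Illumina's TopHat application, which gave FPKM values, and deposited 1 table of them per mouse. The version and the gene annotation are not given in the sources used here. The tables hold no counts, so the depth behind each value is unknown, and the confidence bounds in them were not used because 98 of the 180 values of the panel exceeded their own upper bound.

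FPKM values were summed over entries that share a symbol, and 24 genes with failed estimates were left out. Groups were taken from the genotype labels. The genotypes were tested gene by gene in R 4.3.3 with limma 3.58.1 (lmFit, eBayes with trend) on log2(FPKM + 0.1), for genes with a mean of at least 1 FPKM and with Benjamini-Hochberg adjustment, so a fold change understates that of low genes. The fit was tested on simulated data in which 200 genes were changed. It recovered 53.0% of them at a 1.5-fold change, 86.5% at 2-fold and 98.5% at 4-fold, so changes of 1.5-fold or less could often be missed. The changed genes were drawn from all genes tested, and recovery for the panel alone was not measured. The log2 SD within genotypes ran from 0.239 for *Vsig4* to 1.07 for *Marco*, against a median of 0.282 over all genes tested. Recovery is lower for the more variable members. Ratios were compared by exact permutation over livers. Correlations over 18 livers were tested with 100000 permutations (seed 1). Figures and tables were made with Python 3.11.15, pandas 2.3.3, scipy 1.17.1 and matplotlib 3.10.9. Promoter sequences were read from RefSeq (GRCm38.p6).

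The panel, the gene lists and the tests were chosen with earlier results of these data known. Named genes were the panel, the 10 genes outside it nearest to each of 2 reference means, and members of the regulator, marker and niche lists that passed the test. *Adgre1*, *Cd68*, *Csf1r*, *Trem2*, *Gpnmb*, *Ccr2*, *Ly6c2* and *Gpr180* were also named. Other genes named from the lists were chosen after their values were seen. Each animal is 1 sample. The p-values of limma and of the ratios judge a difference between groups against the spread between mice. Those of the correlations come from permuting livers. Alternatives were other pseudocounts, FPKM minimums, scalings, fits and subsets of livers.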

Additional observations from a re-analysis of the deposited data

Results flagged for a closer look

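A total of 38 sets of 9 livers were tested for a sample far from the others (10 genes and 9 ratios in each genotype, on the log2 scale). Of these, 6 held one, where chance marks about 1 in 20. The sets share livers and genes, and every ratio holds *Clec4f*, so the 6 are not independent and cannot be weighed against that share. W134 accounted for 4 of the 6 and KO51 for 2. In W134, *Timd4* reached 3.35 on the log2 scale (10.1 FPKM), and the next WT liver had 2.25. The same liver had a log2 ratio of -1.71 for *Timd4*/*Clec4f* (the other WT livers lay from -4.18 to -3.40), of 0.84 for *Marco*/*Clec4f* (others -4.48 to -2.13) and of 0.12 for *Clec4f*/*Emr1* (others 1.86 to 2.32). Its *Marco* value of 59.2 FPKM was the highest of the 18 livers and its *Cd163* value of 0.953 FPKM the lowest.

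In KO51, *C1qa* reached 6.38 on the log2 scale (83.1 FPKM), where the next *Gpr180*KO liver had 5.62. Its log2 ratio of 3.16 for *Clec4f*/*Emr1* compared with 1.98 to 2.52 in the other *Gpr180*KO livers. KO51 was also the highest or lowest liver for 55.8% of all genes tested and W134 for 14.2%. What set these livers apart was not tested.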

How the results depend on the processing

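Under 34 alternatives of the genotype fit, no member was called higher, and members were called lower under 2 of them, 1 each with library weights and with title style A alone (*C1qb* in both cases). Without single livers the number was 0 throughout. The number of all genes called was 513, and it was 837 with a minimum of 0.1 FPKM, 238 with a minimum of 5 FPKM, 293 with median-of-ratios scaling, 254 with 75th percentile scaling, 1331 with library weights, 1153 with title style as a block, 677 with style A alone, 1 with style B alone and 794 without W134 and KO51. Among fits without 1 liver it was highest without W157 (911) and lowest without W133. The cause was not tested.

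The sign turned for *Marco* with median-of-ratios scaling (0.10, with and without title style as a block), 75th percentile scaling (0.0226), style B alone (0.21), W134 and KO51 left out (0.26) and single livers left out (range -0.34 to 0.32), for *Folr2* with median-of-ratios scaling (0.0532, with and without the block) and single livers left out (-0.19 to 0.0032), and for *Clec4f* with style A alone (-0.0764). The median of the panel was 0.0167 with median-of-ratios scaling, with and without the block. Members called lower in style B were 1 with median-of-ratios scaling, 5 without W134 and KO51, and from 1 (without W317) to 4 (without W134) without single livers. The interaction called 0 members under every alternative run. The median pairwise r was 0.67 in WT livers and 0.36 in *Gpr180*KO livers alone, and from 0.47 to 0.56 without single livers.

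The log2 ratio difference of *Timd4*/*Clec4f* was 0.0019 with a pseudocount of 0.01, 0.32 in style A, 0.28 without W134 and KO51, and from -0.0944 to 0.21 without single livers. That of *Vsig4*/*Clec4f* lost its unadjusted exact p under 0.05 in style A (-0.17), without W134 and KO51 (-0.24) and in 12 of 18 cases without single livers (-0.46 to -0.29). *Marco*/*Clec4f* was 0.20 without W134 and KO51 and from -0.46 to 0.20 without single livers. The unadjusted exact p of *C1qa*/*Clec4f* fell under 0.05 with permutation within title style (-0.36) and in style B (-0.50). It also did in 2 of 18 cases without single livers (range -0.45 to -0.25). That of *Clec4f*/*Emr1* fell under 0.05 with a pseudocount of 1 (0.43) and in style A (0.38). It also did in 7 of 18 cases without single livers (range 0.23 to 0.50). In style A alone, *Clec4f*/*Cd68* (0.51, exact p = 0.171), *Clec4f*/*Trem2* (1.65) and *Clec4f*/*Gpnmb* (2.02) missed 0.05. No paired analysis was possible because replicate numbers were given in accession order and do not pair mice across genotypes. Depth is unknown, so low values cannot be given a counting error.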
